A study of Mus musculus with 2 samples.

Results

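Syk, Zap70, the SRC family kinases Lyn, Fyn and Blk, the adaptor Blnk and the phospholipase Plcg2 were examined in a list of FLAG-HLF binding sites (peaks) from mouse blood progenitors. A peak was counted at a gene when its centre lay inside the gene or within 100 kb of either end. This gave 9 of the 3153 peaks, at 3 of the 7 genes, where 36.3% of all coding genes had a peak by the same rule. The genes were chosen by the positions of peaks in this same list, so their counts are a description and carry no test.

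HLF, the hepatic leukemia factor, binds DNA as a member of the PAR bZIP group of transcription factors. Chromatin was precipitated with an anti-FLAG antibody from LSK cells, the stem and progenitor fraction of the marrow that lacks lineage markers and carries Sca-1 and c-Kit. In both arms the cells were wild type and were transduced with a pMX retrovirus, and both arms were then grown for 5 days with IL-3, IL-7, SCF and the ligand of Flt3. The FLAG-HLF arm received a virus for FLAG-tagged Hlf with IRES-GFP, so the factor measured was expressed from the virus, and the control arm received GFP alone. Each arm had 1 library, and a peak list of the GFP control was not analysed here, so there is no spread between replicates and no comparison of the arms. The sources used here state neither the age nor the sex of the mice. The list gives positions without heights, counts or significance, so depth is unknown, and no marker could be checked against the labelled cell type.

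These genes encode the first steps of signalling from antigen receptors. SRC family kinases (Lyn, Fyn and Blk in B cells) phosphorylate tyrosines in the tails of the receptor chains. Syk, or Zap70 in T cells, docks on these tyrosines and becomes active. Syk then phosphorylates the adaptor Blnk, which brings Plcg2 to the complex, and Plcg2 splits a membrane lipid into messengers that release calcium. Syk and Lyn also act in myeloid cells, downstream of Fc receptors and integrins.

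The sequence at the start of Blnk is shown because a peak covered it, the only peak at these genes for which a sequence was at hand. The peak (chr19:40994121-40994520, mm10) reached from 299 bases before the start of Blnk to base 101 of the gene, and its centre lay 99 bases upstream of the start. Blnk lies on the minus strand (chromosome 19, 40928927 to 40994221). The 250 bases before the start, from RefSeq on GRCm38.p6, are printed 5′ to 3′ on the strand of the gene, and the line under them repeats 30 bases around the peak centre. Capitals mark words that were searched, namely an ETS word and a bZIP-type word.
Blnk, chr19:40994222-40994471: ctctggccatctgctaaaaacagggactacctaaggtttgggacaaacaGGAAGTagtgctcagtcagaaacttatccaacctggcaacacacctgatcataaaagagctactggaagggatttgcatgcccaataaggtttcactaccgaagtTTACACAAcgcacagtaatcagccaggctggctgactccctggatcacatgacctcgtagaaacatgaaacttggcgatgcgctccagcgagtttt
Blnk, chr19:40994306-40994335: aggtttcactaccgaagtTTACACAAcgca

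The bZIP-type word lay almost at the centre of the Blnk peak. TTACACAA, which reads TTGTGTAA on the other strand, ran from base -96 to base -89 relative to the start, with its middle 6.5 bases from the peak centre. It joins TTAC, the half-site of the PAR bZIP palindrome TTACGTAA, to ACAA. This word was added to the search after the Blnk sequence had been read. On both strands it occurred in 0.731% of the 32851 promoter entries of the same length (250 bases before to 50 after a start), and in 11.0% (25) of the 227 entries overlapped by a peak. In those 25 entries its median distance from the peak centre was 11.5 bases, and in 19 it was within 50 bases. The Blnk entry, from which the word was taken, is itself among the 227, the 25 and the 19. The 32851 entries belong to 27025 genes, so entries of the same gene can count a peak and a word more than once.

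The words first listed for the PAR bZIP and C/EBP families were not in the 300 bases of the Blnk entry. These were TTACGTAA, TTATGTAA, TTGCGCAA and TTGCGTAA, each searched on both strands. Their shares were 0.119%, 0.938%, 0.183% and 0.167% of all entries. Among the 227 entries with a peak, the shares were 0.441% (1 entry), 6.17% (14), 2.64% (6) and 4.85% (11). The ETS word GGAAGT occurred in the Blnk entry on both strands, from base -201 to -196 and, reversed, from base 1 to 6, about 100 bases to either side of the peak centre (99.5 and 101.5). It is common, in 23.8% of all entries and in 32.6% of those with a peak. The RUNX word TGTGGT (16.8% of all entries and 16.7% of those with a peak), the GATA word AGATAA (11.2% and 9.25%), the AP-1 word TGANTCA (7.81% and 6.17%) and the E-box CAGCTG (16.3% and 15.4%) were not found in it. A match is a run of letters and not a measured site.

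**Figure D1:**
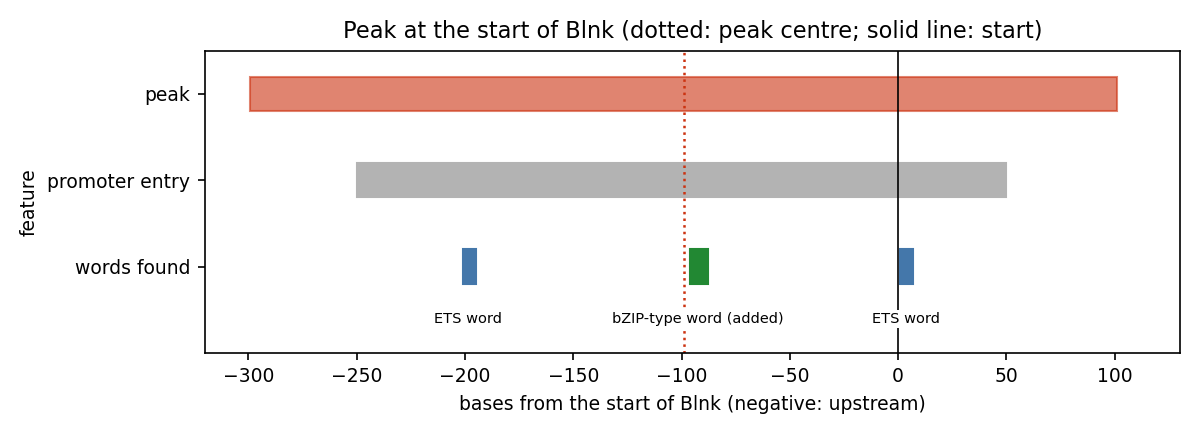
The peak at the start of Blnk, the 300-base promoter entry and the words found in it, along bases from the start (negative is upstream). The peak spans 299 bases before the start to base 101, and the added bZIP-type word, at bases -96 to -89, lies beside the dotted line of the peak centre at 99 bases upstream, while both ETS words lie about 100 bases away from it.

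The other promoters carried no peak. The promoter table held 8 entries for 5 of the 7 genes (Syk, Zap70, Fyn, Blnk and Plcg2), and Lyn and Blk had none. Blnk was the 1 gene of the 5 with an overlapped entry, beside 0.949% of the 17492 coding genes with an entry. The entries of Syk began transcription at 52583437 and 52596882 on chromosome 13, and the closest peak centre was 2.33 and 15.8 kb upstream of them. For the start of Plcg2 the closest centre was 155 kb away, for the 3 starts of Zap70 105 to 122 kb, and for Fyn 590 kb. None of these 7 entries held any of the bZIP words. The Blnk entry had 50.0% G and C, beside a median of 52.7% over all entries and 57.7% over those with a peak. It held 7 CpG pairs, as did the median entry, while the median entry with a peak held 16.

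Lyn, the kinase that phosphorylates B cell receptor chains and also inhibitory receptors, had 4 peaks (chromosome 4, 3678068 to 3791612, 114 kb long). A pair lay below the gene, centred 29.1 kb (chr4:3648723-3649122) and 26.3 kb (chr4:3651534-3651933) outside its lower end. Another lay inside, 3.82 kb above the lower end (chr4:3681691-3682090). The last lay 12.7 kb outside the upper end (chr4:3804157-3804556). No peak lay in the 110 kb of the gene between the inner peak and the upper end. The pair below the gene was 2.81 kb apart. Of all 3133 neighbouring pairs, 3.86% were within 5 kb, and the median spacing was 268 kb.

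Lyn was the nearest coding gene for each of its 4 peaks, but for the lowest peak by little. The closest coding neighbours of Lyn were Rps20, a ribosomal protein gene 40.0 kb above Lyn, and Tgs1, an RNA cap methyltransferase gene 61.4 kb below. The lowest peak centre was 32.3 kb from Tgs1 and 29.1 kb from Lyn, and the highest was 27.2 kb from Rps20 and 12.7 kb from Lyn. Noncoding genes were closer to each of the 4 peaks than an end of Lyn. The pair below lay 7.58 and 4.77 kb from the long noncoding RNA gene 2210414B05Rik. For the inner peak the nearest end belonged to Gm42250, a long noncoding RNA gene that overlaps the lower end of Lyn, at 3.78 kb against 3.82 kb for Lyn itself. For the peak above, the small nucleolar RNA gene Gm22781 was 7.77 kb away. With noncoding genes included, Lyn was therefore nearest to no peak.

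Syk, the kinase that carries the signal from the receptor to the adaptors, also had 4 peaks in its window (chromosome 13, 52582610 to 52648792, 66.2 kb long). The closest to an end was centred 1.51 kb outside the lower end (chr13:52580905-52581304), on the upstream side, since Syk lies on the plus strand. Another lay inside, 41.7 kb above the lower end and 24.5 kb below the upper one (chr13:52624086-52624485). The next lay 55.2 kb outside the upper end (chr13:52703762-52704161), where the noncoding gene BB123696 was nearer, at 25.4 kb. The last lay 64.1 kb outside the lower end, but inside Diras2, a gene of a small RAS-like GTPase (chr13:52518310-52518709), whose end was 12.8 kb away. Syk was thus the nearest coding gene for 3 of its 4 peaks. From the lowest to the highest, the 4 peaks were 62.6, 43.2 and 79.7 kb apart, unlike the close pair below Lyn.

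Blnk, the adaptor between Syk and Plcg2, had the 1 peak at its start and no other in its window. The next peak on the far side was 140 kb below the gene, inside Cc2d2b. Dntt, which encodes the terminal transferase of lymphoid progenitors, begins 35.1 kb above Blnk. The centre of the Blnk peak was 34.955 kb from Dntt, and so within 100 kb of that gene too. No other peak centre lay in or around Dntt within the window of Blnk.

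**Figure D2:**
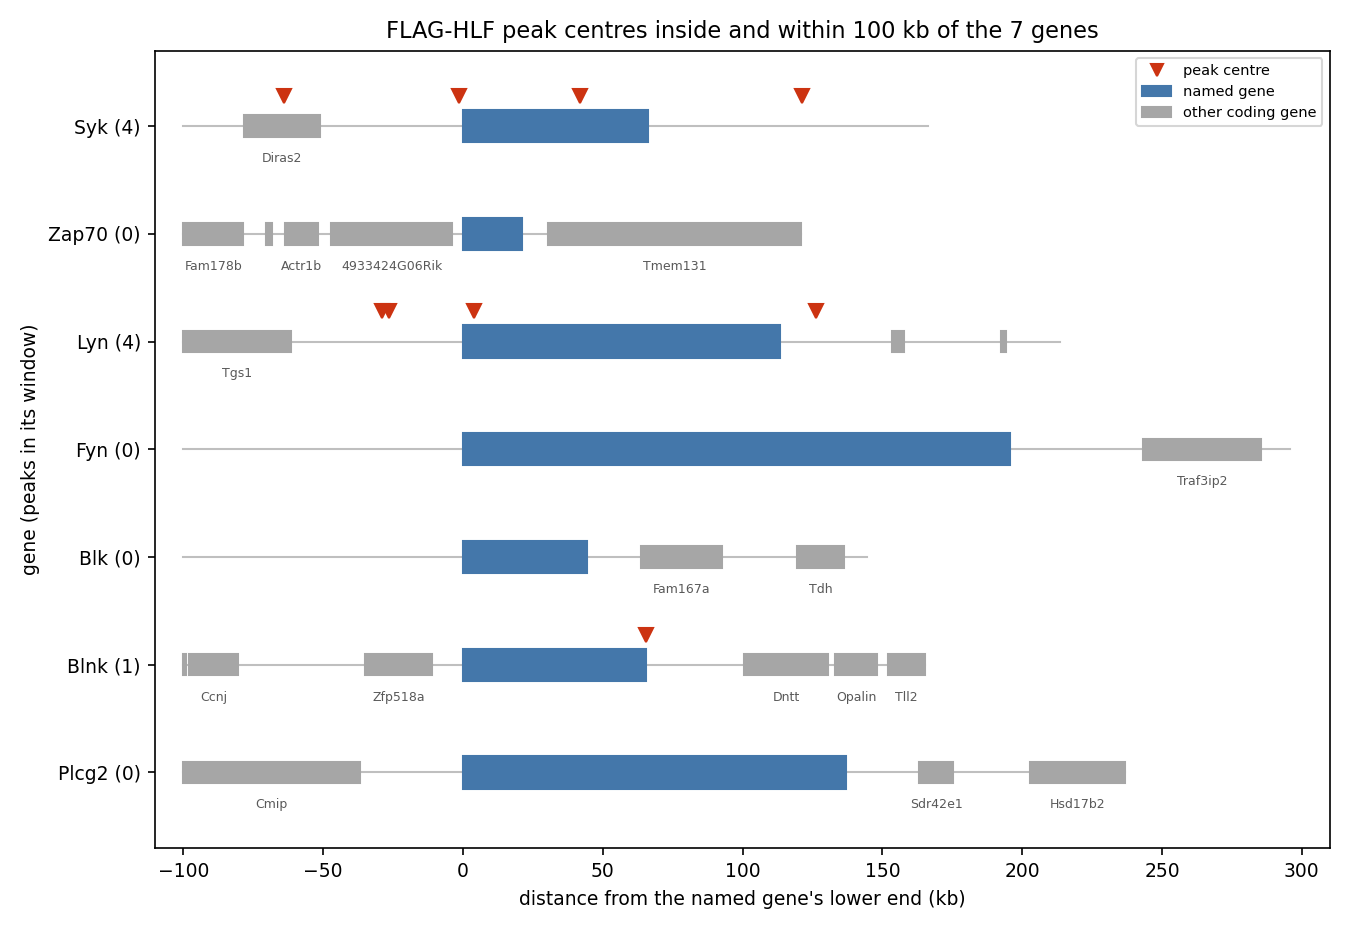
Peak centres (triangles) along the 7 genes (blue) with other coding genes in their windows (grey; the unlabelled ones are Cox5b at Zap70, Rps20 and Mos at Lyn and the end of Cc2d2b at Blnk), in kb from each gene's lower end. Lyn and Syk have 4 peaks each, Blnk has 1 at its upper end, and Zap70, Fyn, Blk and Plcg2 have none.

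The other 4 genes had no peak within 100 kb. Zap70, the T cell counterpart of Syk (chromosome 1, 36761798 to 36782821), was just outside the limit, with a peak inside Tmem131 centred 101 kb above it. The farthest peak just inside the limit was that of Syk in Diras2, at 64.1 kb. Plcg2 (chromosome 8, 117498275 to 117635142) had its closest peak 155 kb below, inside Cmip, and the next on the other side 1802 kb above, inside Osgin1. Blk, a SRC family kinase of B cells (chromosome 14, 63372837 to 63417187), had its closest peak 265 kb above, inside Xkr6. Fyn, a SRC family kinase of T cells and neurons as well (chromosome 10, 39369743 to 39565381), is the longest of the 7 at 196 kb, and its closest peak was 395 kb above, inside Mfsd4b5. The stretch without a peak centre around Fyn measured 2644 kb, around Plcg2 2094 kb, around Zap70 1023 kb and around Blk 683 kb. Among the SRC family kinases examined here, Lyn with 4 peaks thus stood beside Fyn and Blk with none, and among the related pair Syk and Zap70, Syk had 4 and Zap70 none.

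These distances were set beside those of all coding genes. Of the 21887 coding genes, 36.3% had a peak inside or within 100 kb, so 3 of 7 genes (42.9%) is near the background. Among the 8732 coding genes of 21.0 to 196 kb, the range of the 7 genes, the share was 40.1%. A peak inside the gene was found for 2 of 7, Lyn and Syk, beside 6.83% of coding genes. An end of one of the 7 genes was the nearest coding end for 8 of the 9 peaks, and 3 of 7 genes had such a peak, beside 10.8% of all coding genes and 15.9% of those of like length. Lyn and Syk belonged to the 0.366% of coding genes (80) that were nearest to at least 3 peaks, and to the 1.08% with at least 4 peaks in the window. The median length of the 7 genes was 66.2 kb, beside 17.2 kb for all coding genes. For a peak inside, and for at least 3 or at least 4 peaks, no share of genes of like length was computed. The rule used these positions, and nothing is read from the shares.

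The closest-peak distances of the 7 genes ran from 0 kb, for the peaks inside Syk and Lyn, to 395 kb for Fyn. Their median was 101 kb, beside 181 kb for the 21631 coding genes on a chromosome with a peak. For Blnk, 92.9% of coding genes had their closest peak farther away. Zap70 (63.0% farther) and Plcg2 (53.6%) lay in the middle of the distribution. Blk (40.9%) and Fyn (32.0%) lay in its farther part, though many genes were farther still. In all, the windows of the 7 genes covered 2043 kb and held 4.41 peaks per Mb, beside 1.21 per Mb over the span of the coding genes. That span also takes in the stretches between genes. Lyn and Syk had 4 of the peaks each and Blnk 1, and the windows of the other 4 genes held none. The genes were chosen by these peaks, so nothing is read from the density.

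**Figure D3:**
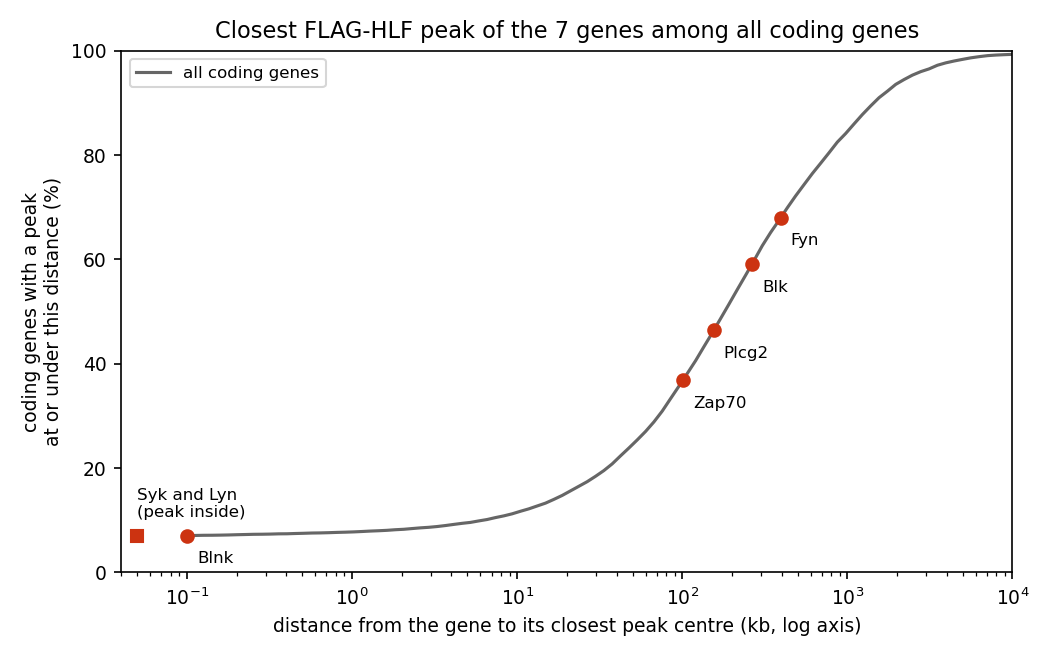
The curve gives the share of coding genes (%) whose closest peak centre lies at or under a distance (kb, log axis), and the points place the 7 genes on it. Syk and Lyn, which hold a peak and have no place on a log axis, are drawn as a square at the left edge beside Blnk. Zap70 and Plcg2 lie near the middle at 101 and 155 kb, and Blk and Fyn lie beyond it at 265 and 395 kb.

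Lyn was the gene of the 7 with the most nearest peaks, and 11 coding genes had exactly 4. The 3 closest to Lyn in length were Lcp1, Notch2 and Ell2. Lcp1, which encodes the actin-bundling protein L-plastin of blood cells, is 99.7 kb long and held all 4 of its peaks inside. Notch2, a Notch receptor gene of 137 kb, held 2 inside, and Ell2, an elongation factor gene of 64.9 kb, held 1 inside. Their peaks began 17.4, 17.8 and 16.9 kb from a gene end, while those of Lyn began at 3.82 kb and reached 29.1 kb. The likeness is the number of nearest peaks in 1 library.

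The same count was made for 76 other genes of antigen receptor signalling, in 5 lists by role. By the window rule 50 of the 76 had a peak (65.8%, against 36.3% of coding genes), from 95 distinct peaks, none of them shared with the 7 genes above. By the nearest end, 26 had one (34.2%, against 10.8%). Their median length was 52.6 kb and that of all coding genes 17.2 kb. Among coding genes of 21.0 to 196 kb the shares were 40.1% by the window and 15.9% by the nearest end, and no share matched to the lengths of the 76 genes was computed. The median distance to the closest peak was 46.0 kb, beside 181 kb for coding genes. The lists were chosen with earlier results of these data known, and some of the 76 genes share a peak. No test was made of these lists, and nothing is read from their shares.

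Of 13 receptor chains and coreceptors 10 had a peak in the window (76.9%, beside 36.3% of coding genes), and 1 had the nearest end (7.69%, near the 10.8% of coding genes). This was Fcer1g, the signalling chain of Fc receptors that recruits Syk, with 2 peaks inside its 4.78 kb, at 1.17 and 1.91 kb from the upper end. The 3 peaks around Cd247, the zeta chain of the T cell receptor, lay 28.6 to 98.3 kb outside, and those around Cd22, an inhibitory B cell receptor on which Lyn acts, at 22.5 and 23.1 kb, were nearest to Ffar3. A peak 7.14 kb outside Fcgr2b, the inhibitory Fc receptor, was nearest to another gene too. Cd79a, a signalling chain of the B cell receptor, had none within 240 kb, and the windows of Cd3g, Cd3d and Cd3e shared 1 peak. Cd79a and the Cd3 genes were picked after their values were seen.

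Among the other SRC and TEC family kinases and their regulators, 8 of 14 had a window peak (57.1%, beside 36.3% of coding genes). The nearest end was found for 4 (28.6%, beside 10.8%). Tec, a TEC family kinase of blood cells, had 4 peaks, 2 of them inside, and was nearest to 3. Pag1, the membrane adaptor that holds the SRC family inhibitor Csk, had 2 inside and another 86.6 kb outside. Among the SRC family genes of this list, Src, Lck and Frk had no peak in the window, and Fgr and Yes1 had 1 each, at 51.4 and 40.0 kb, closer to another gene. Btk, the TEC kinase that works with Blnk on Plcg2, lies on X and had its closest peak 6378 kb away. These last 6 genes were picked after their values were seen.

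Adaptors had a peak in the window in 9 of 20 cases (45.0%, near the 36.3% of coding genes). They had the nearest end in 6 (30.0%, beside 10.8%). Dapp1, a B cell adaptor that binds membrane phosphoinositides, had 2 of its 5 peaks inside, 12.6 and 15.9 kb from an end. Grap2, the T cell adaptor known as Gads, had 2 of 3 inside. Pik3ap1, the B cell adaptor known as BCAP, had 1 of 2 inside, 48.7 kb from an end. Dok1, an inhibitory adaptor, had 6 in its window, but 5 of them lay inside M1ap and the other inside Dqx1.

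Each of the 9 phosphatases and ubiquitin ligases had a peak in its window, beside 36.3% of coding genes. Of these, 6 had the nearest end (66.7%, beside 10.8%). Ptprc, which encodes CD45, the phosphatase that activates SRC kinases, had 4 peaks, 1 of them inside, and was nearest to 2. Inpp5d, the lipid phosphatase SHIP of inhibitory signalling, had 1 inside, 4.64 kb from its lower end. Ptpn11, which encodes SHP2, had 3 outside, the closest at 6.996 kb, and Ptpn22, a phosphatase that restrains SRC kinases, had 2 at 24.1 and 69.2 kb, both inside other genes.

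Downstream of the receptors, 14 of 20 enzymes, channels and factors had a peak in the window (70.0%, beside 36.3% of coding genes). The nearest end was found for 9 (45.0%, beside 10.8%). Vav1, the RAC activator of blood cells, had 4 peaks, 1 of them inside at 7.88 kb from the lower end. Its relative Vav3 had 3, all inside, with a pair 20.6 and 21.6 kb from the lower end. Prkcd, a protein kinase C isoform active in B cells, had 4 outside, 2 of them nearest to it, at 4.76 and 7.32 kb above its upper end. Pik3r1, the regulatory subunit of PI 3-kinase, had 1 inside, 2.10 kb from the upper end, and 1 lying 25.7 kb outside. Plcg1, the relative of Plcg2 that serves T cells and was picked after its values were seen, had a peak centred 1.39 kb outside its lower end, while Plcg2 had none within 155 kb.

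**Figure D4:**
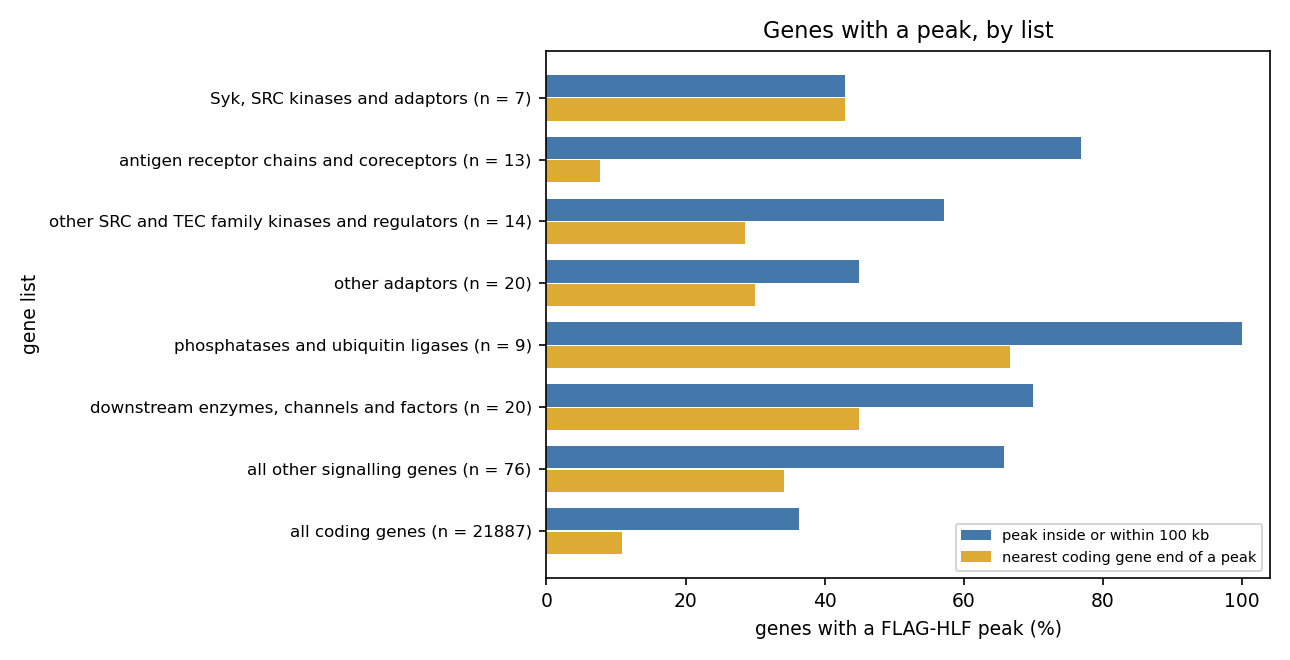
Bars give the share of genes (%) with a peak inside or within 100 kb (blue) and with the nearest coding end of a peak (yellow), for the 7 genes, the 5 lists of other signalling genes, those lists together and all coding genes. The 7 genes stand at 42.9% by both rules, and all coding genes at 36.3% and 10.8%.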

How the data were processed

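Peak positions came from the 1 file of the FLAG-HLF library, which the authors deposited as 3 columns without header (chromosome, start and end), so its unit is a position and no signal is given. Every peak was 400 bases wide. Per the submitters' processing notes, which give neither role nor version, the tools were MACS2, Bowtie2 and bedtools, on mm10 (GRCm38). How peaks were thresholded, and whether the GFP library was the background, the sources used here do not state. The centre was the start of the interval plus 200. Gene bounds were those of RefSeq on GRCm38.p6 (49943 placed genes, 21887 of them coding), without strand or exons, and strand and starts came from RefSeq promoter entries of the same build. Lower and upper ends are those of smaller and larger coordinate. Peaks were assigned by distance alone, which shows neither contact nor regulation. Coordinates count from 1.

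The members and lists were chosen with earlier results of these data known. Named genes are the 7 members, the genes that hold their peaks or lie nearest, up to 4 genes per list with the most peaks in the window and then the shortest distance, and 3 genes like Lyn. Some genes that this rule takes are not reported here. Peak sequences outside promoters were not analysed here. Assignment was checked on simulated peaks. Python 3.11.15, numpy 2.4.6, pandas 2.3.3 and matplotlib 3.10.9 were used.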

Additional observations from a re-analysis of the deposited data

How the results depend on the processing

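Of 20 alternative values for 5 results, 10 stayed within 1.5 times the value given above. The 9 peaks at the 7 genes became 5 with a limit of 20 kb, 14 with 200 kb, and 2 when only peaks inside a gene counted. The same 3 genes had a peak at 20, 50 and 100 kb, and 5 genes at 200 kb. The shares of all coding genes at these 4 limits were 15.1%, 24.2%, 36.3% and 51.8%. The 8 peaks nearest to one of the 7 genes became 4 with a limit of 20 kb and 3 when noncoding genes entered, since noncoding ends were nearer for 5 of the 9 peaks. The 50 other signalling genes with a peak became 28 with a limit of 20 kb (36.8%, beside 15.1% of coding genes), 26 by the nearest end, and 31 with the first 1576 lines of the list, which holds fewer peaks. Of the words first listed, 1 was found in the Blnk entry, 0 in the central 200 bases of the peak, and 2 with the word added after the sequence was read. A stricter peak threshold could not be tried, because the list has no score. No paired analysis was possible because each arm had 1 library and the control list was not analysed here. With depth unknown, a gene without a peak is not shown to lack binding.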
